A study of Caenorhabditis elegans with 13 samples.

Results

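The ad libitum aging course of Caenorhabditis elegans consisted of 5 small RNA libraries, 1 for each of adult days 2, 4, 6, 8 and 10, out of 13 libraries in the series. All of them were made from the whole body of N2, the laboratory wild-type strain, and those 5 carried the diet label AL. The remaining 8 libraries, 1 for each of days 4, 6, 8 and 10 under the diets CR and IF, enter only where they are named, and the labels used here give no protocol for either diet. The course was described over 201 of 434 mature microRNAs (miRNAs), those with at least 10 reads in at least 2 of the 5 AL libraries. Of the 434, 335 had a read in some AL library, 231 had a read in all 5 and 99 had none.

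miRNAs are cut from hairpin precursors, and usually 1 strand, the guide, is kept by an Argonaute protein while the other, the passenger, is degraded. The guide pairs with messenger RNAs and lowers their output. In worms lin-4 and let-7 were found as timers of larval development, the mir-35 family is made in oocytes and embryos and is needed for embryogenesis, and several miRNAs, among them lin-4, miR-34, miR-71 and miR-239, alter lifespan when lost.

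The 5 AL libraries held 3174231 to 5143918 miRNA reads. Levels are given in CPM, reads scaled to a common library size. Scaled by total reads, 3 reads, the limit below which a level is not told from 0 here, stood for 0.583 to 0.945 CPM. The 201 miRNAs held at least 99.986% of the reads of each library. Of them, 146 had 10 or more reads on all 5 days, 5 were at 0 reads on at least 1 day, and 90 averaged 50 CPM or more. The 5 members nearest to the limit, miR-5549-3p, miR-5593-5p, miR-789-5p, miR-789-2-5p and miR-788-5p, had 10 reads in their second-highest library, and the 6 nearest outside it had 9 (miR-1817, miR-246-5p, miR-244-3p, miR-8199-5p, miR-8189-3p and miR-795-3p). Each day was sampled once, so a course is a description of 5 libraries, and nothing in the labels used here tells whether they came from 1 culture or several. Whole animals were sequenced, so fewer cells of a type and less of a miRNA per cell cannot be told apart.

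A single miRNA dominated the young libraries and gave way on days 6 and 8. miR-58a-3p, a relative of the fly growth regulator bantam, held 59.0% of the reads on day 2 and 66.5% on day 4. The leading 5 miRNAs together held 78.0% and 83.0% on those days, and 60.4%, 72.7% and 72.3% on days 6, 8 and 10. Measured as the number of equally abundant miRNAs that would give the same diversity (the exponential of the Shannon entropy), makeup widened from 7.04 on day 2 and 5.27 on day 4 to 17.5 on day 6, and was 10.5 and 9.81 on the last 2 days. To reach 90% of the reads took 13, 11, 22, 12 and 14 miRNAs on days 2, 4, 6, 8 and 10. Day 6 was thus the most even library and day 4 the least.

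The order behind miR-58a-3p was rebuilt over the course. On days 2 and 4 the next places went to miR-36-3p, a mir-35 family guide (8.97% and 6.68%), and to miR-66-5p of the mir-64 family (4.25% and 5.45%). On day 6 the mir-58 family member miR-80-3p followed with 12.4%, ahead of miR-35-3p with 5.93%. On day 8 miR-48-5p, a sister of let-7 that times larval development, led with 33.3%, followed by miR-58a-3p with 24.0% and miR-80-3p with 5.95%, and the muscle miRNA miR-1-3p entered the leading 5 with 4.5%. On day 10 miR-58a-3p led again with 48.5%, followed by miR-228-5p, known from glia, with 6.62%, miR-64-5p with 6.53% and the let-7 family member miR-84-5p with 5.58%. None of the 95% Wilson intervals of these shares was wider than 0.102 percentage points, which reflects counting error alone.

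**Figure D1:**
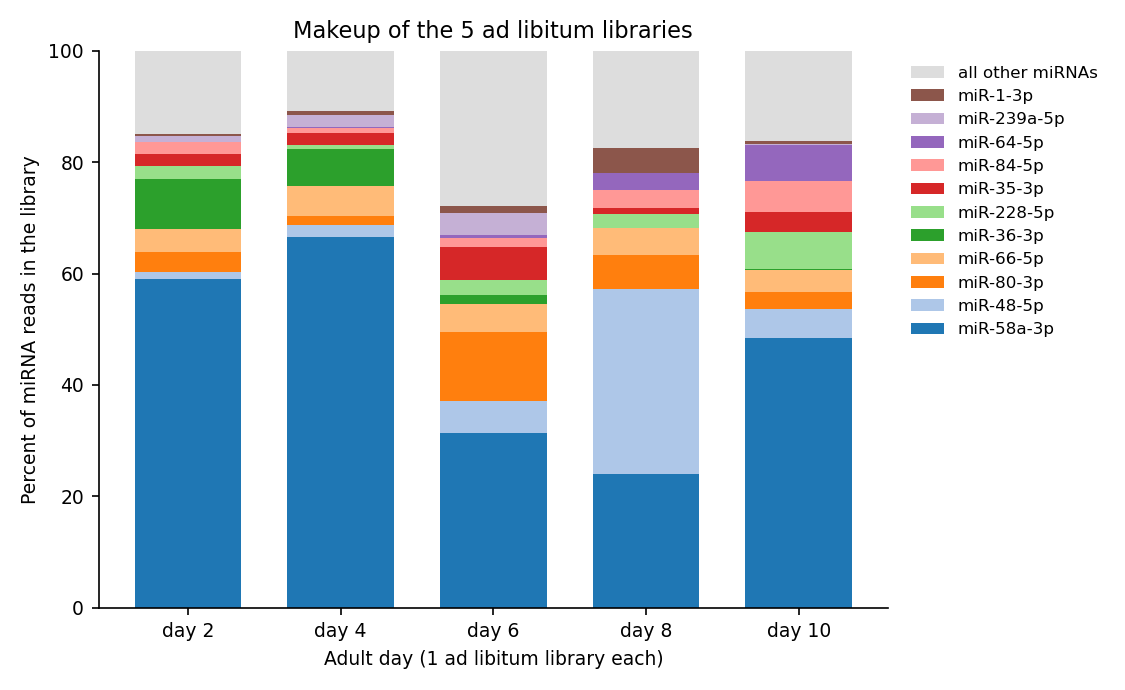
Percent of miRNA reads (vertical axis) held by each miRNA that was among the leading 5 of any library, stacked for the 5 AL libraries by adult day, with all other miRNAs in grey. miR-58a-3p fills 59.0% and 66.5% of the bars of days 2 and 4, and miR-48-5p fills 33.3% of the bar of day 8.

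miR-36-3p made the longest fall through the order of abundance among the leading miRNAs of day 2: it ranked 2 on days 2 and 4, then 12, 52 and 24 on days 6, 8 and 10. miR-64-5p moved the other way, from rank 55 on day 2 to 41, 28, 9 and 3. miR-66-5p, encoded beside miR-64-5p, held between 3.98% and 5.45% on all 5 days and stayed within ranks 3 to 6. miR-239a-5p, whose locus limits lifespan, ranked 12, 5 and 6 on days 2, 4 and 6 and then 39 and 35 on days 8 and 10. These ranks and shares do not depend on how libraries are scaled to each other.

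Further levels are in CPM after scaling by trimmed mean of M values (TMM), which sets the bulk of the miRNAs equal between libraries. The TMM factors were 1.02, 0.874, 1.81, 0.586 and 1.05 on days 2 to 10, so days 6 and 8 are the days whose levels depend most on the scaling. On day 8 the limit of 3 reads stood for 1.155 CPM with TMM. The median log2 CPM of the 201 miRNAs was 4.90 on day 6 and 5.09 on day 8 with TMM, against 5.75 and 4.33 with scaling by total reads. Between its highest and lowest day the median miRNA spanned 2.69 log2 units, or 6.45-fold, and the extremes were 0.48 for miR-82-3p and 7.55 for miR-64-5p. The highest of the 5 days was day 8 for 66 miRNAs, day 2 for 45, day 10 for 44, day 6 for 26 and day 4 for 20. The lowest day was likewise most often day 8, for 63 miRNAs.

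The day 8 library lay furthest from those of days 2, 4 and 6. Across the 201 miRNAs, Pearson's r of log2 CPM was 0.830 to 0.901 between day 8 and the other days, and 115 to 136 miRNAs differed at least 2-fold. Days 2 and 4 were closest, with r of 0.965 and 71 such miRNAs. Days 8 and 10 had r of 0.901 and 115 such miRNAs, much like days 2 and 10 (0.884 and 115) and days 4 and 10 (0.909 and 114). Genes are not independent replicates, and these values only describe the libraries. Courses were then sorted by steps of at least 1 log2 unit. A peak or trough is a day 4, 6 or 8 that is the highest or lowest of the 5 and at least 2-fold from both neighbours. By this sorting 34 of 201 miRNAs (16.9%) had a peak on day 8 and 34 (16.9%) a trough on day 8. On day 6 there were 12 peaks (5.97%) and 10 troughs (4.98%), and on day 4 there were 4 peaks (1.99%) and 6 troughs (2.99%). In all, 37 miRNAs had a peak only, 37 a trough only and 13 both, while 5 went up at every step (2.49%), 2 went down at every step (0.995%), 4 spanned less than 2-fold (1.99%) and 103 met none of these definitions.

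The day 8 peaks included abundant miRNAs of several families. miR-48-5p had 13310, 24970, 31150, 568100 and 48750 CPM on days 2, 4, 6, 8 and 10. Its day 8 level was 3.54 log2 units above the higher of days 6 and 10. miR-1-3p, which acts in body wall and pharyngeal muscle, had 3847, 9370, 6718, 76730 and 3913 CPM. Both were alike in that days 2, 4, 6 and 10 lay far below day 8.

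The largest day 8 peaks were those of miR-44-3p and miR-45-3p, with 684.5, 395.1, 358.2, 54410 and 2197 CPM each, 4.63 log2 units above the higher neighbour. Their reads were identical in all 5 libraries, so these entries cannot be told apart and count as 1 measurement. The third tested member of the mir-44 family, miR-61-3p, and all 3 of the mir-50 family also peaked on day 8 with TMM, but miR-61-3p and miR-50-5p did not meet the definition under every other scaling. In the mir-50 family, miR-90-3p had 508.6, 358.2, 903, 20560 and 878.8 CPM. miR-62, which is cut from an intron of ugt-50 (chromosome X, 12692608 to 12692665, WBcel235), had 60.59, 147.2, 86.68, 9697 and 551.1 CPM. miR-50-5p had a smaller peak of 2923 CPM over 1370, 660.4, 1312 and 473.7.

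Troughs on day 8 included guides of the oocyte and embryo family and other miRNAs of middle abundance. miR-39-3p of the mir-35 family had 17570, 9858, 9749, 1882 and 7196 CPM, and miR-40-3p had 4866, 3441, 5351, 543.6 and 1806. Outside that family, miR-77-3p had 832.2, 1103, 2824, 202.5 and 1705 CPM, with a peak on day 6 and a trough on day 8. All 3 of these courses had their lowest level on day 8. miR-87-3p had 1523, 760.9, 1260, 161.3 and 923.5. miR-52-5p, of the mir-51 family, had 8387, 9557, 9271, 1772 and 7253 CPM. Both of these were also lowest on day 8, and all 5 were higher again on day 10.

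All 34 day 8 troughs also met the definition with DESeq2 size factors, with total reads and with total reads less the 3 leading miRNAs. Of the 34 day 8 peaks 15 did so, among them miR-48-5p, miR-1-3p, miR-44-3p, miR-45-3p, miR-62, miR-90-3p and miR-41-5p. Day 8 troughs numbered 39, 67 and 61 and day 8 peaks 29, 17 and 19 with these 3 scalings in turn. Each counted more troughs and fewer peaks than TMM, so the even split comes with TMM. Because all 3 shift day 8 toward troughs, the 34 of 34 does not show troughs to be firmer than peaks. Day 6 peaks numbered 58 with total reads, and 11 of the 12 found with TMM were found with all 4 scalings.

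As shares of all reads, markers of some cell types were also at an extreme on day 8, and those of others were not. The leading arms of the 8 mir-35 family hairpins, markers of oocytes and embryos, summed to 14.9%, 11.7%, 15.3%, 1.95% and 6.45% of the reads on days 2, 4, 6, 8 and 10. With TMM 4 of 8 of these arms had a day 8 trough, 1 had a day 8 peak and none was at 0. Over all miRNAs 34 of 201 (16.9%) had a day 8 trough and 34 (16.9%) a day 8 peak. The peak in this family was that of miR-41-5p, while miR-41-3p of the same hairpin was lowest on day 8. The muscle marker miR-1-3p held 0.394% to 1.22% on the other days and 4.5% on day 8. The let-7 family of hypodermal timing miRNAs held 3.43% to 10.9% on the other days and 36.6% on day 8, of which miR-48-5p alone held 33.3%. None of the other 3 members had its highest share on day 8: let-7-5p had its lowest there (0.109%), miR-241-5p held 0.0352% against 0.108% on day 6, and miR-84-5p held 3.13% against 5.58% on day 10. The 3 intestinal markers, miR-60-3p, miR-240-5p and miR-786-3p, held 0.122% on day 8, inside their range of 0.065% to 0.277%. Most of this sum was miR-240-5p (0.11%). miR-60-3p had its lowest share on day 8 (0.00481%), with a trough under all 4 scalings, and miR-786-3p held 0.00675%, inside 0.00301% to 0.0147%. The neuronal markers miR-124-5p, miR-791-3p and lsy-6-3p held 0.00167%, inside 0.000544% to 0.00244%, with lsy-6-3p at 2 to 10 reads a library. The glial marker miR-228-5p held 2.47% on day 8, inside 0.712% to 6.62%. Of the other timing miRNAs, lin-4-5p held 0.0553%, inside 0.00884% to 0.061%, and miR-237-5p 0.0312%, inside 0.00962% to 0.0398%. With TMM, however, both were highest on day 8, at 943.9 and 532.4 CPM, and lin-4-5p had a peak there. The part of these cell types in the day 8 values was not tested.

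**Figure D2:**
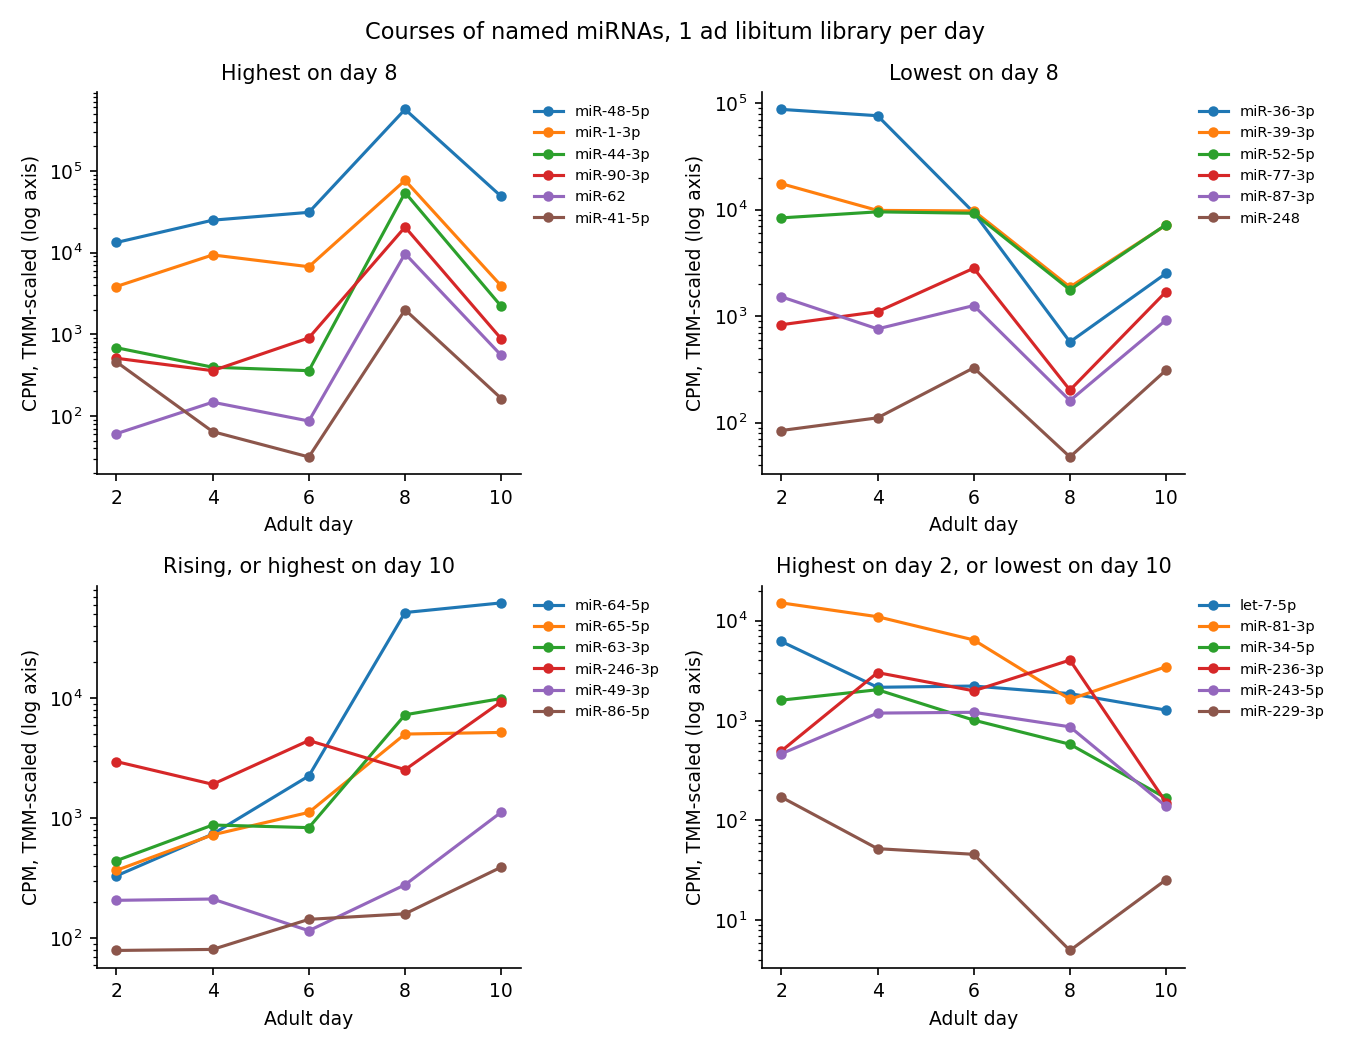
TMM-scaled CPM (vertical, log axis) of 24 miRNAs against adult day (horizontal), 6 to a panel, with 1 AL library per point. miR-48-5p reaches 568100 CPM on day 8 and miR-36-3p falls to 574 CPM on that day, while miR-64-5p climbs to 62140 CPM on day 10.

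Flat courses were rare among abundant miRNAs. miR-82-3p of the mir-58 family had 6573, 7258, 5189, 5952 and 6923 CPM, the narrowest range of all 201. miR-35-3p had 19900, 23100, 32690, 19690 and 33500 CPM and also stayed within 2-fold, in contrast to miR-36-3p, whose hairpin lies 8 bases downstream on the same strand. These courses were flat with TMM. As shares of all reads both spanned more than 2-fold, 0.349% to 0.941% for miR-82-3p and 1.15% to 5.93% for miR-35-3p. The other 2 flat courses with TMM were those of the low-abundance miR-1-5p and miR-259-5p.

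Day 2 was sampled in AL only. There 15 of 201 miRNAs (7.46%) were at least 2-fold higher than on every later day, while 4 (1.99%) were at least 2-fold lower. let-7-5p, the founding member of its family, was the most abundant of the 15, with 6189, 2153, 2216, 1861 and 1272 CPM. It thus ran against the other let-7 family guides, since miR-48-5p, miR-84-5p and miR-241-5p were all higher on day 10 than on day 2. miR-229-3p followed with 171.4, 52.25, 45.86, 5.004 and 25.6 CPM, and the other 13 averaged less than 50 CPM. Under all 4 scalings 10 of the 15 met the definition, and let-7-5p was not among these 10. The 4 miRNAs at least 2-fold lower on day 2 were miR-64-5p and the low-abundance miR-1829a-5p, miR-4807 and miR-5552-5p. Of these 4, only miR-4807 and miR-5552-5p met the definition under all 4 scalings.

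No miRNA passed the test of day 2 against the mean of the 4 later days (0 of 201, 0%; edgeR quasi-likelihood test with Benjamini-Hochberg adjustment, smallest adjusted p = 0.206), although 10 had an unadjusted p under 0.05. DESeq2 called 1 and limma-voom 0. The test assumes that the lone day 2 library varies like the later ones, whose spread includes their age differences. The 2 smallest p belonged to passenger arms: miR-37-5p was 3.90 ± 1.18 log2 units (SE) higher on day 2 and miR-250-5p 3.67 ± 1.12 (both edgeR adjusted p = 0.206). Of the 10 with the smallest p, 8 were higher on day 2 (miR-37-5p, miR-250-5p, miR-79-5p, miR-799, miR-42-5p, miR-229-3p, miR-39-5p and miR-40-5p) and miR-64-5p and miR-62 were lower.

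Day 10 was at least 2-fold above every earlier day for 13 of 201 miRNAs (6.47%) and at least 2-fold below for 11 (5.47%). miR-246-3p, whose loss shortens life, had 2957, 1913, 4431, 2532 and 9333 CPM. miR-49-3p, related to miR-83, had 206.4, 211.7, 115.2, 278.3 and 1121. miR-60-3p, an intestinal miRNA, had 132.2, 258.2, 184.5, 82 and 641.5 CPM, and miR-43-3p, of the mir-2 family, had 61.53, 206.3, 195.1, 50.04 and 962.2. These day 10 definitions were met with TMM. As a share of all reads miR-246-3p was less than 2-fold higher on day 10 (0.98%) than on day 6 (0.804%). miR-60-3p and miR-43-3p also had a trough on day 8, and none of these 4 miRNAs went up at every step. miR-86-5p had 78.9, 80.49, 143.3, 159.4 and 390.4 CPM and was the only 1 of the 5 with a mean of at least 50 CPM that did, with TMM but not as a share of all reads, which was 0.026% on day 6 and 0.00934% on day 8.

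At the low end of day 10, miR-34-5p, a conserved miRNA of stress resistance and aging, had 1601, 2035, 1010, 579.4 and 167.1 CPM. miR-236-3p, the worm relative of the miR-8 and miR-200 miRNAs, had 495.5, 3020, 1985, 4028 and 151.1. lin-4-5p had 292.6, 221.9, 336.3, 943.9 and 84.22, so that the highest and the lowest of its 5 levels were on neighbouring days. miR-243-5p had 465.2, 1188, 1210, 865.8 and 138.5. The slopes of these 4 over the whole course did not pass the test (edgeR adjusted p from 0.248 to 0.985).

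A line through the 5 ages, like the day 2 contrast, left each miRNA an error estimate with 3 residual degrees of freedom. edgeR's quasi-likelihood test pools these estimates across miRNAs, so the p-values printed rest mainly on the pooled error and not on 3 degrees of freedom. The pooled error was estimated separately for the slope and for the day 2 contrast, so their p-values do not share an error basis. By edgeR's quasi-likelihood test the slope differed from 0 (adjusted p below 0.05) for 16 of 201 miRNAs (7.96%), 6 rising (2.99%) and 10 falling (4.98%), with the identical entries of miR-44-3p and miR-45-3p each counted. Of all 201, 42 had an unadjusted p under 0.05. Over all 201 the median slope was 0.06 log2 units per day, with 117 above 0 and 83 below. Without the day 2 library no miRNA passed, with 15 at an unadjusted p under 0.05 and a change of sign in none of the 16. Without day 4 the count was 4 and without day 6 it was 8, while it was 16 without day 8 (10 of them shared) and 20 without day 10 (9 shared). DESeq2 called 25 and total-read scaling 5.

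miR-64-5p rose most steeply. It had 330.2, 735.3, 2246, 51630 and 62140 CPM on days 2, 4, 6, 8 and 10, and its slope was 1.10 ± 0.25 log2 units per day (SE; edgeR adjusted p = 0.00103). Its neighbour miR-65-5p had 367, 724.9, 1116, 5015 and 5175 CPM with a slope of 0.53 ± 0.21, which missed the threshold (edgeR adjusted p = 0.0886). Both increased at every step under all 4 scalings. With TMM most of the increase of each came between days 6 and 8, which depends on the scaling. As shares of all reads on days 6, 8 and 10, miR-64-5p held 0.407%, 3.03% and 6.53%. miR-65-5p held 0.202%, 0.294% and 0.543%, with the larger gain after day 8. miR-63-3p rose as well, with 442, 875.6, 833.1, 7261 and 9915 CPM and a slope of 0.61 ± 0.20 (edgeR adjusted p = 0.0411).

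The other rising slopes leaned on a single library. miR-62 had a slope of 0.997 ± 0.271 (edgeR adjusted p = 0.00883), which was 0.36 without day 8. For miR-44-3p and miR-45-3p the slope was 0.87 ± 0.27 (edgeR adjusted p = 0.0249), and 0.23 without day 8. Their courses were peaks on day 8 rather than lines. miR-47-5p, the less abundant arm of the mir-47 hairpin on days 2 to 8, had 11.04, 11.12, 3.474, 14.24 and 128.4 CPM. Its slope of 0.42 ± 0.14 (edgeR adjusted p = 0.0411) was gone without day 10. On day 10 this arm led with 57.8% of the reads of the hairpin, against 2.51% to 17.6% on the other days.

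Of the 10 miRNAs that fell, 8 were the less abundant arm of their hairpin. miR-79-5p had 92.29, 33.35, 5.211, 0.7699 and 1.954 CPM, a slope of -0.77 ± 0.17 log2 units per day (edgeR adjusted p = 0.00103). miR-250-5p had 103.1, 17.79, 5.733, 5.004 and 3.713 CPM and fell with a slope of -0.59 ± 0.15 (edgeR adjusted p = 0.00584). miR-2-5p, the passenger of the conserved miR-2, had 27.71, 21.12, 5.038, 0 and 3.127 CPM. All 3 arms were highest on day 2 and had 13 reads or fewer on day 8.

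The other 2 falling miRNAs were miR-36-3p and miR-232-3p. miR-36-3p had 87590, 76380, 9425, 574 and 2530 CPM, so that days 2 and 4 were far above days 6 to 10, and a slope of -0.78 ± 0.22 (edgeR adjusted p = 0.0127). It was the one abundant miRNA among the 10. miR-232-3p had 90.64, 78.71, 29.36, 2.695 and 9.38 CPM and a slope of -0.51 ± 0.17 (edgeR adjusted p = 0.0411).

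**Figure D3:**
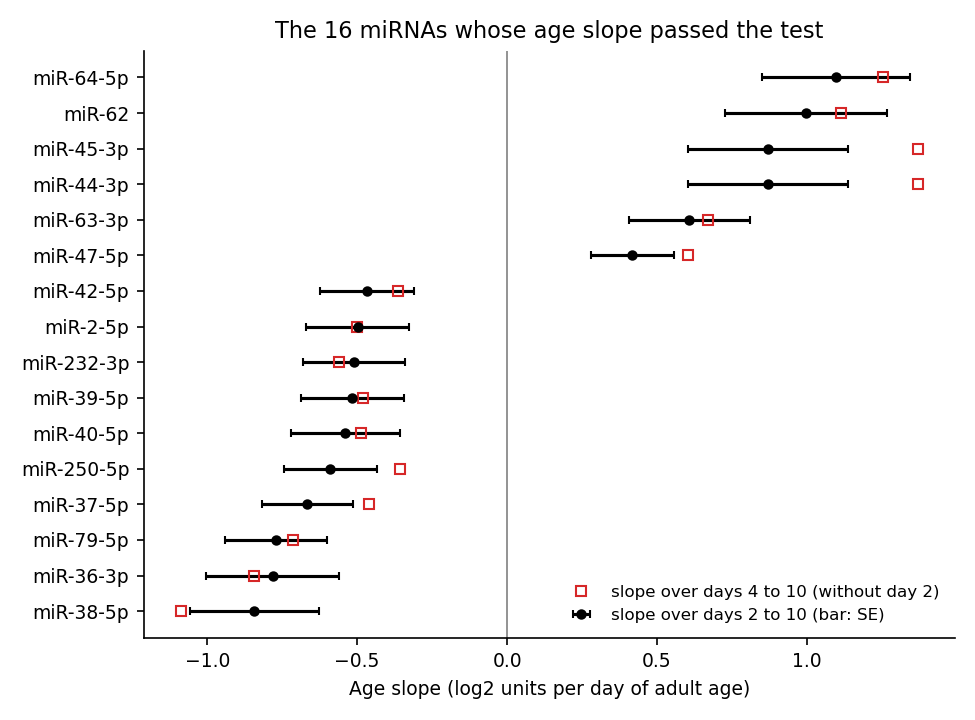
Age slope in log2 units per day (horizontal) of the 16 miRNAs that passed the edgeR test, with SE bars, and the slope of the same miRNAs without the day 2 library (open squares). miR-64-5p is at the top with 1.10 and miR-38-5p at the bottom with -0.84, and no square lies on the other side of 0 from its point.

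Both arms were counted for 57 hairpins with 10 or more reads of each arm in at least 2 libraries, which gives a ratio within a library that needs no scaling. The share of the less abundant arm was highest on day 2 for 25 of 57 hairpins (43.9%), at least 2-fold above every later day for 9 (15.8%) and lowest on day 2 for 3 (5.26%). Its median over the 57 hairpins was 3.02% on day 2, 1.91% on day 4 and 0.599%, 0.579% and 0.865% on days 6, 8 and 10. Among the less abundant arms, 8 of 57 fell with age and 1 rose, with a median slope of -0.06 log2 units per day. Among the more abundant arms 1 fell and 4 rose, with a median slope of 0.10. Over all 201 miRNAs 10 fell (4.98%) and 6 rose (2.99%). miR-44-3p and miR-45-3p, whose reads are identical, are each counted among the 4, and their hairpins are each counted among the 57. For mir-79 the 5p arm held 68.9% of the reads of the hairpin on day 2 and 20.2%, 7.83%, 2.7% and 1.25% afterwards, so that its leading arm changed between days 2 and 4.

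The mir-35 family carried 5 of the 10 falling slopes in its 5p arms, the passengers, against 1 in its 3p arms. miR-37-5p had 151.2, 30.91, 2.606, 2.31 and 4.495 CPM, a slope of -0.67 ± 0.15 (edgeR adjusted p = 0.00103), while its guide miR-37-3p had 6495, 5278, 5998, 3202 and 8947 CPM and a slope of 0.03 ± 0.18. miR-38-5p had 85.71, 42.02, 37.35, 2.695 and 0.7817 CPM and a slope of -0.84 ± 0.22 (edgeR adjusted p = 0.0054). miR-39-5p, miR-42-5p and miR-40-5p fell with slopes of -0.52, -0.47 and -0.54 (edgeR adjusted p = 0.0411, 0.0411 and 0.0459). miR-35-5p had 191.9, 52.25, 118.5, 1.155 and 13.87 CPM and missed the threshold (edgeR adjusted p = 0.0597). Among the 3p arms miR-36-3p alone passed. The median slope of the 8 leading arms was -0.14, where mir-41 is represented by its 5p arm (slope 0.20) and not its 3p arm (-0.14).

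The same shift was measured by reads, as a share that also moves with the mix of hairpins. Without mir-41, the 7 hairpins had 2743 reads of 5p arms and 616820 of 3p arms on day 2, a 5p share of 0.443% (95% Wilson interval 0.427% to 0.46%). The share was 0.147%, 0.236% and 0.0947% on the next 3 days sampled, and 0.0533% (0.0458% to 0.062%) at the end. Over all 8 hairpins the 5p share was highest on day 2 for 5 and higher on day 2 than on day 10 for 7. In the other diets, which have no day 2, the share of the 7 hairpins was 0.126%, 0.117%, 0.0432% and 0.0294% in CR and 0.1%, 0.108%, 0.0363% and 0.0329% in IF on days 4, 6, 8 and 10.

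mir-41, the last hairpin of the mir-35 cluster, exchanged its leading arm. Its 5p arm held 76.0%, 6.11%, 13.6%, 96.6% and 34.4% of its reads on days 2, 4, 6, 8 and 10. miR-41-5p accordingly had a peak on day 8, with 458.6, 64.26, 31.44, 1997 and 163.4 CPM. miR-41-3p had 144.7, 988.1, 199.4, 70.06 and 311.3 CPM, a peak on day 4. In CR the 5p share was 3.41%, 5.71%, 79.9% and 29.2% on days 4, 6, 8 and 10, and in IF it was 16.2%, 9.79%, 87.8% and 28.7%, with day 8 the highest in both.

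**Figure D4:**
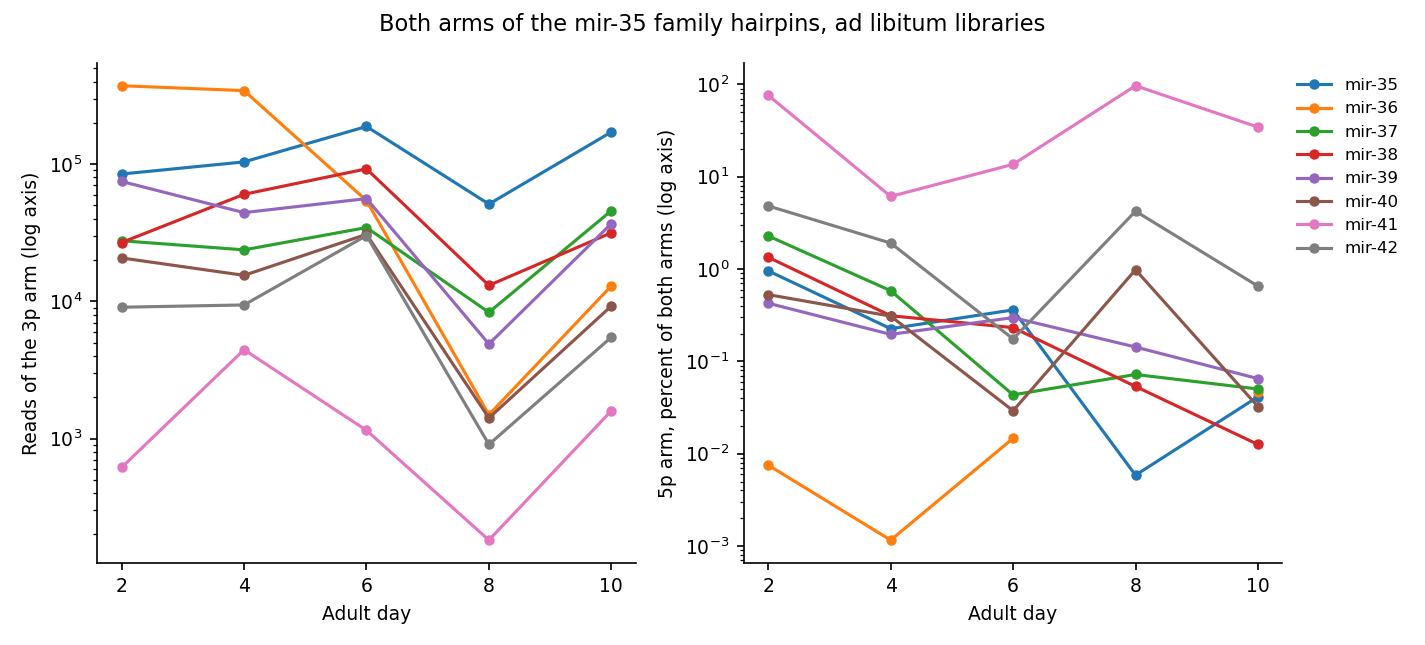
Left, reads of the 3p arm (log axis) of the 8 mir-35 family hairpins by adult day, and right, the 5p arm as a percent of the reads of both arms (log axis), 1 AL library per point. The 5p share of mir-37 drops from 2.28% to 0.0502%, mir-41 swings between 6.11% and 96.6%, and the point of mir-36 on day 8, with 0 reads of the 5p arm, is not drawn.

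Hairpins encoded side by side had unlike courses in some clusters and similar ones in others, and those described were picked after their values were seen, with no tally over all clusters. miR-228-5p and miR-790-5p, from 1 stretch of chromosome IV (5562025 to 5566491, WBcel235), were both lowest on day 4 and had their 2 highest levels on days 8 and 10, with 22830, 8144, 14560, 42080 and 63020 CPM and 40.39, 13.56, 20.67, 53.51 and 52.18 CPM. Other neighbours differed. On chromosome III, mir-229, mir-64, mir-65 and mir-66 lie within 2172452 to 2173206 (WBcel235) in an intron of gcn-1, on its strand. miR-64-5p rose and miR-65-5p went up at each step, but miR-66-5p had 41560, 62310, 27800, 84010 and 37930 CPM, and miR-229-5p had 851.3, 745.3, 214.4, 859.2 and 941.7 with a trough on day 6. On chromosome II, mir-35 to mir-41 lie within 11537608 to 11538404, opposite an intron of Y62F5A.9. The courses of miR-35-3p (flat with TMM but not as a share), miR-36-3p (falling) and miR-41-5p (day 8 peak) came from neighbours there. At 11889811 to 11890118 on the same chromosome, miR-42-3p and miR-43-3p both had a trough on day 8, of 348.8 and 50.04 CPM, where miR-44-3p had its peak, and miR-43-3p alone of them was highest on day 10.

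Counts of called slopes in families are small, and over all 201 miRNAs 7.96% passed in either direction, so that 0 of a few members is near that share. In the mir-58 family 4 of 7 members were tested and none passed: miR-81-3p had 15060, 10950, 6410, 1633 and 3461 CPM and the lowest slope (-0.32 ± 0.19), and miR-80-3p the highest (0.14 ± 0.23). None of the 6 members of the mir-51 family passed, with slopes from -0.36 to 0.19. miR-55-3p, with 15290, 6566, 12600, 2016 and 2264 CPM, had the lowest of these slopes. The mir-72 family had slopes of 0.43 to 0.48 in all 3 members, with none past the threshold. miR-72-5p had 1707, 1498, 1269, 18080 and 11840 CPM.

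Among the leading arms, 4 families had a called slope. In the mir-35 family 1 of 8 fell (median slope -0.14), in the mir-64 family 1 of 4 tested members rose (0.28), in the mir-50 family 1 of 3 rose (0.70), and in the mir-44 family the identical pair rose, 1 measurement beside that of miR-61-3p, which did not pass. In the let-7 family 0 of 4 passed (median 0.17), and miR-48-5p had the highest slope, 0.68 ± 0.26 (edgeR adjusted p = 0.0886). The lin-4 family (0 of 2, median 0.06), the mir-2 family (0 of 4, 0.22), the mir-87 family (0 of 2, 0.11) and the mir-238 family (0 of 3, -0.22) had no member past the threshold. The same held for the mir-46, mir-75 and mir-251 families, each with 0 of 2 and medians of 0.02, 0.08 and 0.02. Among tissue markers the slopes of miR-1-3p (0.44 ± 0.25), miR-228-5p (0.23 ± 0.18), miR-124-5p (0.17 ± 0.17) and miR-791-3p (0.30 ± 0.18) did not pass either.

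Members of some of these small families ran apart and others did not. miR-233-3p and miR-87-3p share a seed family, yet miR-233-3p had 37.1, 61.37, 329.9, 74.68 and 303.5 CPM, with a peak on day 6, and miR-87-3p was lowest on day 8 with no such peak. In the mir-46 family both members were highest on day 6, miR-46-3p with a peak (273.6, 158.5, 679.2, 100.9 and 191.5 CPM) and miR-47-3p with a smaller range (51.66, 62.48, 134.8, 89.31 and 93.6 CPM). miR-239b-5p had 314.4, 2117, 579, 316.8 and 408.2 CPM, a peak on day 4, and was high on fewer days than its paralog miR-239a-5p. Reads of such paralogs could be shared by the authors' counting, which is not described in the sources used here.

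Of the 10 miRNAs chosen for lifespan phenotypes, 0 passed the slope test, near the 7.96% of all 201. Of their slopes 7 were above 0, with a median of 0.11, against 117 of 201 above 0 and a median of 0.06 over all. miR-71-5p, whose loss shortens life, had 4173, 4475, 10200, 12040 and 2579 CPM. miR-239a-5p had 9626, 24690, 22100, 1367 and 1483 CPM, high on days 2 to 6 and low on days 8 and 10. miR-238-3p of the same family ran the other way, with 3519, 2811, 8787, 36670 and 23970 CPM. The smallest adjusted p of the 10 was that of miR-238-3p (edgeR adjusted p = 0.176). Summed, the 10 guides held 8.08%, 5.68%, 23.7%, 11.6% and 13.7% of the reads on days 2, 4, 6, 8 and 10, with miR-80-3p the largest part on days 2, 6 and 8, miR-239a-5p on day 4 and miR-228-5p on day 10.

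The CR and IF libraries gave 2 more courses over days 4 to 10, sharing no library with AL. Libraries of the same day moved together in all 3 diets, so adult day and anything else that the libraries of 1 day may share cannot be told apart. Of the 34 miRNAs with a day 8 peak in AL, 33 were measured in the 12 libraries, and day 8 was the highest of the 4 days for 31 of them in CR (93.9%) and 32 in IF (97.0%). Over all 212 miRNAs tested in the 12 libraries, day 8 was highest for 72 in CR (34%) and 86 in IF (40.6%). Of the 34 with a day 8 trough in AL, day 8 was lowest for 32 in CR and 32 in IF, against 80 (37.7%) and 59 (27.8%) of all 212. On the scale of the 12 libraries, miR-48-5p had 20750, 542800 and 42510 CPM on days 6, 8 and 10 in CR and 16200, 389500 and 22030 in IF. Its gain on day 8 over the higher neighbour was 3.58 log2 units in AL, 3.67 in CR and 4.14 in IF.

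**Figure D5:**
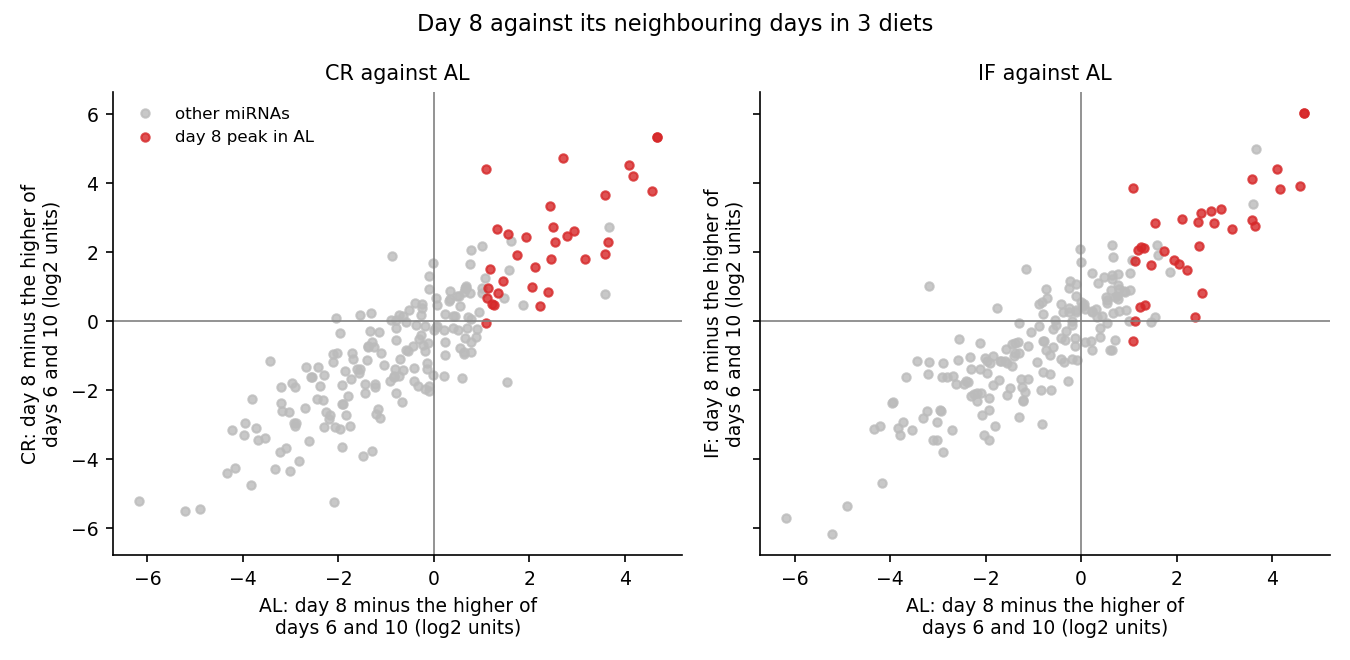
Day 8 minus the higher of days 6 and 10, in log2 units, for 212 miRNAs in AL (horizontal) against CR (left) and IF (right), with the AL day 8 peaks in red. Day 8 was the highest of days 4 to 10 for 31 of the 33 red miRNAs in CR and 32 in IF. Grey points are the other miRNAs of the 212, which include some that were not among the 201 and so were not sorted by shape.

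Whether the AL slope differs from those of the other diets was tested over days 4 to 10. With diet, day as a number and their interaction, no miRNA passed (0 of 212, 0%; 1 at an unadjusted p under 0.05, smallest edgeR adjusted p = 0.999), and DESeq2 and limma-voom also called 0. Another fit held day as a block. There 25 of 212 passed (11.8%), with 54 at an unadjusted p under 0.05. The CR and IF slopes were both below the AL slope for 13 of them, both above for 8 and on either side for 4. Leaving out the AL library of day 4 left 0, that of day 6, 8 or 10 left 8 each, CR day 10 left 12 and IF day 4 left 14. Total-read scaling also left 14.

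miR-64-5p gave the smallest p of the blocked fit. On the 12-library scale it had 920.9, 2648, 63830 and 75020 CPM on days 4, 6, 8 and 10 in AL, 863.3, 5483, 17780 and 28460 in CR and 5906, 4921, 29380 and 13080 in IF. Its slope minus that of AL was -0.35 ± 0.15 log2 units per day in CR and -0.88 ± 0.15 in IF (edgeR adjusted p = 1.26e-05). For miR-236-3p the AL levels were 3782, 2340, 4981 and 182.4 CPM, against 256.8, 379.2, 8176 and 155.1 in CR and 209.4, 223.2, 3254 and 115.1 in IF. The AL course thus began high on day 4, where the other 2 diets were low, and the CR and IF slopes exceeded it by 0.71 ± 0.15 and 0.65 ± 0.15 (edgeR adjusted p = 0.000282).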

How the data were processed

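Whole N2 worms gave 1 small RNA library per diet and day. Ethanol-precipitated RNA was run on a 6% gel to take 18 to 30 nt species, and an Illumina small RNA kit (version 1.5) was followed, per the labels' protocols. The deposited files hold unnormalized counts of reads for each mature miRNA under each precursor, as the file headers name them. How reads were aligned, counted and filtered, and with which build, is not given in the sources used here. No molecular identifiers are mentioned, so intervals and the floor of 3 reads cover counting error only. Entries of 1 mature name were collapsed to the highest count, which removed 0.029% to 0.219% of the reads of an AL library.

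Counts were fitted with edgeR 4.0.16 in R 4.3.3 (quasi-likelihood test, two-sided, TMM scaling, Benjamini-Hochberg adjustment over all miRNAs tested, threshold 0.05). The slope and the day 2 contrast used the 5 AL libraries and 201 miRNAs. The F test of diet by day used the 12 libraries of days 4 to 10 and 212 miRNAs with 10 or more reads in 4 of them. SEs are the log2 estimate over the root of F. Shapes were read from log2 CPM (prior count 2), and shares have 95% Wilson intervals.

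Of 250 hairpins, 245 had the same name in Ensembl's annotation of WBcel235 (release 115), from which coordinates (1-based) and host genes come. No sequences are printed. Named miRNAs were the leading 5 of each library, up to 10 per direction past a test (filled to 10 by the smallest p), up to 6 per shape with a mean of 50 CPM or more, and the leading arms of 20 lists of families, tissue markers and lifespan miRNAs. The members, lists and rules were chosen with earlier results of these data known. Arm counts, clusters, miR-41-3p, miR-35-5p, miR-1-5p, miR-259-5p and miRNAs named because their group held 5 or fewer were added after their values were seen.

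Numbers 2 to 5 of the labels stand for the same adult days in all diets. After removing diet means, the 12 pairs of libraries of the same day correlated at 0.555 to 0.894 and the 36 other pairs at -0.585 to 0.316, so day was also fitted as a block. The fits were tested on simulated counts. Alternatives were limma-voom 3.58.1, DESeq2 1.42.0, other scalings and filters, summed precursors, other thresholds, and each library left out. Tables and plots used matplotlib 3.10.9, scipy 1.17.1, numpy 2.4.6 and pandas 2.3.3 under Python 3.11.15.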

Additional observations from a re-analysis of the deposited data

Results flagged for a closer look

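In 25 miRNAs, 16 of them with a mean of at least 50 CPM, the age slope in AL differed from those in CR and IF in the fit with day as a block, in which each difference is tested by edgeR's interaction F test with adjustment over 212 miRNAs. The 6 smallest adjusted p of the 16 were 1.26e-05 for miR-64-5p, 0.000282 for miR-236-3p, 0.000282 for miR-44-3p, 0.000282 for miR-45-3p, 0.000831 for miR-238-5p and 0.00457 for miR-67-3p. For the other 10 it lay between 0.0071 (miR-239a-5p) and 0.0449 (miR-44-5p), and miR-244-5p, miR-241-5p, miR-71-5p, miR-233-3p and miR-1-3p were among them. Without the block none passed. For miR-44-3p and miR-45-3p, whose reads are the same, the CR and IF slopes minus that of AL were -0.67 ± 0.14 and -0.57 ± 0.14 log2 units per day. For miR-238-5p, the passenger of a lifespan miRNA, they were 0.43 ± 0.15 and 0.76 ± 0.16, with 170.7 CPM in AL on day 4 against 38.37 in CR and 11 in IF. For miR-67-3p they were 0.10 ± 0.14 and 0.60 ± 0.15, so that IF carried the difference. When each of the 12 libraries was left out in turn, miR-64-5p, miR-236-3p and miR-238-5p passed 11 times, miR-44-3p and miR-45-3p 10 times and miR-67-3p 9 times. What sets these differences was not tested.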

How the results depend on the processing

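The count of age slopes past the test moved with the processing: 5 with total reads, 8 without the 3 leading miRNAs in the totals, 10 with no filter, 10 with a filter of 100 reads, 25 with DESeq2, 4 on log2 of day and 2 when AL was fitted with the 13 libraries of 3 diets. Leaving out 1 library gave 0 (without day 2) to 20. The slope of miR-47-5p lay between -0.001 (without day 10) and 0.602 with 1 library left out. For the 16 miRNAs, 136 of 236 values under alternatives kept their call, 99 kept only their direction and 1 turned. For day 2 against later days, DESeq2 called 1 and leaving out a library gave 0 to 3 (without day 4). AL against CR and IF slopes gave 0 to 0 with each library left out and 25 with the replicate block, under which total reads gave 14 and leaving out 1 library gave 0 (AL day 4) to 35.

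Shape counts moved most. With total reads, day 4, 6 and 8 peaks numbered 1, 58 and 17, troughs 24, 0 and 67, and downward courses 4. Without the 3 leading miRNAs, day 6 and 8 peaks were 26 and 19 and troughs 1 and 61. DESeq2 size factors gave 7 day 4 peaks, and summed precursors 8 flat courses and 3 day 4 troughs. With no filter there were 6 downward and 59 flat courses, 7 day 4 peaks and 26 miRNAs high on day 10. With 100 reads, upward courses were 3, day 6 and 8 peaks 7 and 21, day 4 and 6 troughs 1 and 6, day 2 high 7, and day 10 high and low 6 and 5. A step of 1.5-fold gave 1 flat, 19 day 6 peaks, 27 day 4 troughs, 23 high and 13 low on day 2, and 21 high and 17 low on day 10. A step of 4-fold gave 3 upward and 58 flat courses, 1, 2 and 20 peaks and 0, 1 and 12 troughs on days 4, 6 and 8, 3 high and 0 low on day 2, and 5 high and 2 low on day 10. Leaving out 1 library gave 12 to 21 upward, 5 to 20 downward and 12 to 16 flat courses, 5 to 8, 12 to 18 and 34 to 38 peaks and 4 to 14, 12 to 17 and 35 to 38 troughs on days 4, 6 and 8, 13 to 20 high and 5 to 15 low on day 2, and 16 to 33 high and 12 to 24 low on day 10. Summed precursors put the leading share at 66.47% on day 4 and 31.32% on day 6. The cause of these moves was not tested, apart from the smaller or larger set of miRNAs under other filters. At this depth 3 reads limit levels to about 1 CPM, and 1 library per day limits all courses.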

Other observations

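Several named clusters outside the mir-35 and mir-64 stretches also held unlike courses. On chromosome V, mir-48 and mir-241 lie within 14364412 to 14366283: miR-241-5p had 299.2, 187.2, 598.3, 599.8 and 395.9 CPM on days 2, 4, 6, 8 and 10, without the day 8 peak of miR-48-5p. At 11769917 to 11770156 on the same chromosome, miR-250-3p had a trough on day 8 (723 CPM) where miR-61-3p had a peak with TMM (5692 CPM). As a share of all reads miR-61-3p was higher on day 6 (0.427%) than on day 8 (0.334%). On chromosome X, miR-73-3p and miR-74-3p peaked on day 8 with TMM, at 5085 and 649.8 CPM. As shares they were also highest there, but less than 2-fold above day 10 (0.298% against 0.251%, and 0.0381% against 0.0254%). miR-75-3p from the same stretch (2368765 to 2372549) had a day 8 trough of 19.25 CPM. Others were more alike: miR-54-3p, miR-55-3p and miR-56-3p (X, 13144691 to 13145094) were all lowest on day 8, with 176.3, 2016 and 1138 CPM.

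Both of the intestinal miRNAs from 1 stretch of chromosome X (7882622 to 7882840), miR-240-5p and miR-786-3p, had their 2 highest levels on days 8 and 10, though at different abundance. miR-240-5p had 760.6, 450.5, 417.4, 1884 and 1858 CPM, and miR-786-3p had 36.4, 34.46, 76.95, 115.1 and 139.7. The third intestinal marker, miR-60-3p, was lowest on day 8. None of the 3 slopes passed the test, and they lay between 0.20 and 0.28 log2 units per day.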
